A study of Mus musculus with 6 samples.

Results

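Potassium channel genes are described here, chosen as every row of the deposited table whose symbol begins with Kcn, which gave 95 of the 23827 genes listed. They encode the pore-forming subunits of voltage-gated, inward-rectifying, two-pore and calcium- or sodium-activated channels, the auxiliary subunits that bind them, and 1 long non-coding RNA, Kcnq1ot1, which is no channel. Messenger RNA on the ribosomes of brain endothelial cells was isolated from mouse embryos at E14.5 by translating ribosome affinity purification, in which tagged ribosomes of a chosen cell type are pulled down with the RNA they are translating, and was sequenced as polyadenylated RNA. Of the 6 libraries, 3 came from embryos overexpressing Axin1, the scaffold protein on which beta-catenin is tagged for degradation, and 3 from wild-type embryos. The overexpression allele is an Axin1 IresLacZ construct at the Rosa26 (R26) locus. Both groups are of mixed C57BL/6 x 129/Sv background, and in both the mothers had received tamoxifen at E12.5. The Cre line that drives the allele, the ribosome tag and any pooling of embryos could not be taken from the labels.

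Potassium channels let potassium leave or enter the cell along its gradient and so set the membrane potential, which in endothelium governs the driving force for calcium entry. In brain capillaries of the mouse the strong inward rectifier encoded by Kcnj2 is known to sense potassium released by active neurons and to pass a hyperpolarising signal upstream to arterioles. Kcne genes encode small single-pass membrane proteins that bind voltage-gated channels. The product of Kcne3 is known to hold the Kcnq1 channel open at resting potentials, as in epithelia that secrete or absorb salt.

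The deposited RPKM imply 21076922 to 37040176 reads in the Axin1 libraries and 53524184 to 62507510 in the wild-type libraries. A single read at 1 kb of transcript was therefore worth 0.027 to 0.0474 RPKM (reads per kilobase of transcript, scaled to the library's total reads) with Axin1 overexpression and 0.016 to 0.0187 RPKM in wild type. Axin1 itself was at 37.8 ± 0.349 RPKM with overexpression and 14.4 ± 0.798 RPKM in wild type (SD, n = 3 each). The tag RS216 stands in the column name of every Axin1 library and RS148 in that of every wild-type library, so if the tag marks a run, run and genotype cannot be told apart. All 10 endothelial markers listed were present, with a summed level of 3008 to 3226 RPKM in Axin1 libraries and 3422 to 3590 RPKM in wild-type libraries. Without Cldn5, the most abundant of them, the other 9 summed to 2271 to 2494 RPKM in Axin1 libraries and 2240 to 2291 RPKM in wild-type libraries, which overlap. Transcripts of other cells were present too, such as the neural progenitor marker Sox2 at a mean of 45.9 RPKM over the 6 libraries. For every gene, fewer cells of a type and less RNA per cell cannot be told apart in such bulk samples.

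Of the 95 Kcn genes, 43 reached a mean of 1 RPKM over the 6 libraries, 48 had reads below that level and 4 had none. With the threshold applied to either group alone the number was 45, and 37 genes lay at or above 1 RPKM in every library. Only 10 reached a mean of 5 RPKM. The members just above the threshold were Kcnj14 with a mean of 1.02 RPKM and Kcnn3 with 1.07 RPKM, and those just below were Kcnk9 with 0.967 RPKM and Kcnj13 with 0.925 RPKM. By class, 10 of 17 auxiliary genes, 18 of 40 voltage-gated pore genes, 7 of 15 inward rectifier genes, 4 of 14 two-pore genes and 4 of 8 calcium- or sodium-activated genes reached it. All 4 Kcnip genes, Kcnf1 and Kcnma1 did so, as did 3 of 8 Kcna, 2 of 3 Kcnab, 1 of 2 Kcnb, 3 of 4 Kcnc, 2 of 3 Kcnd, 3 of 5 Kcne, 2 of 4 Kcng, 2 of 8 Kcnh, 1 of 4 Kcnmb, 3 of 4 Kcnn and 4 of 5 Kcnq genes. No gene of the Kcns, Kcnt, Kcnu or Kcnv families reached it.

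**Figure D1:**
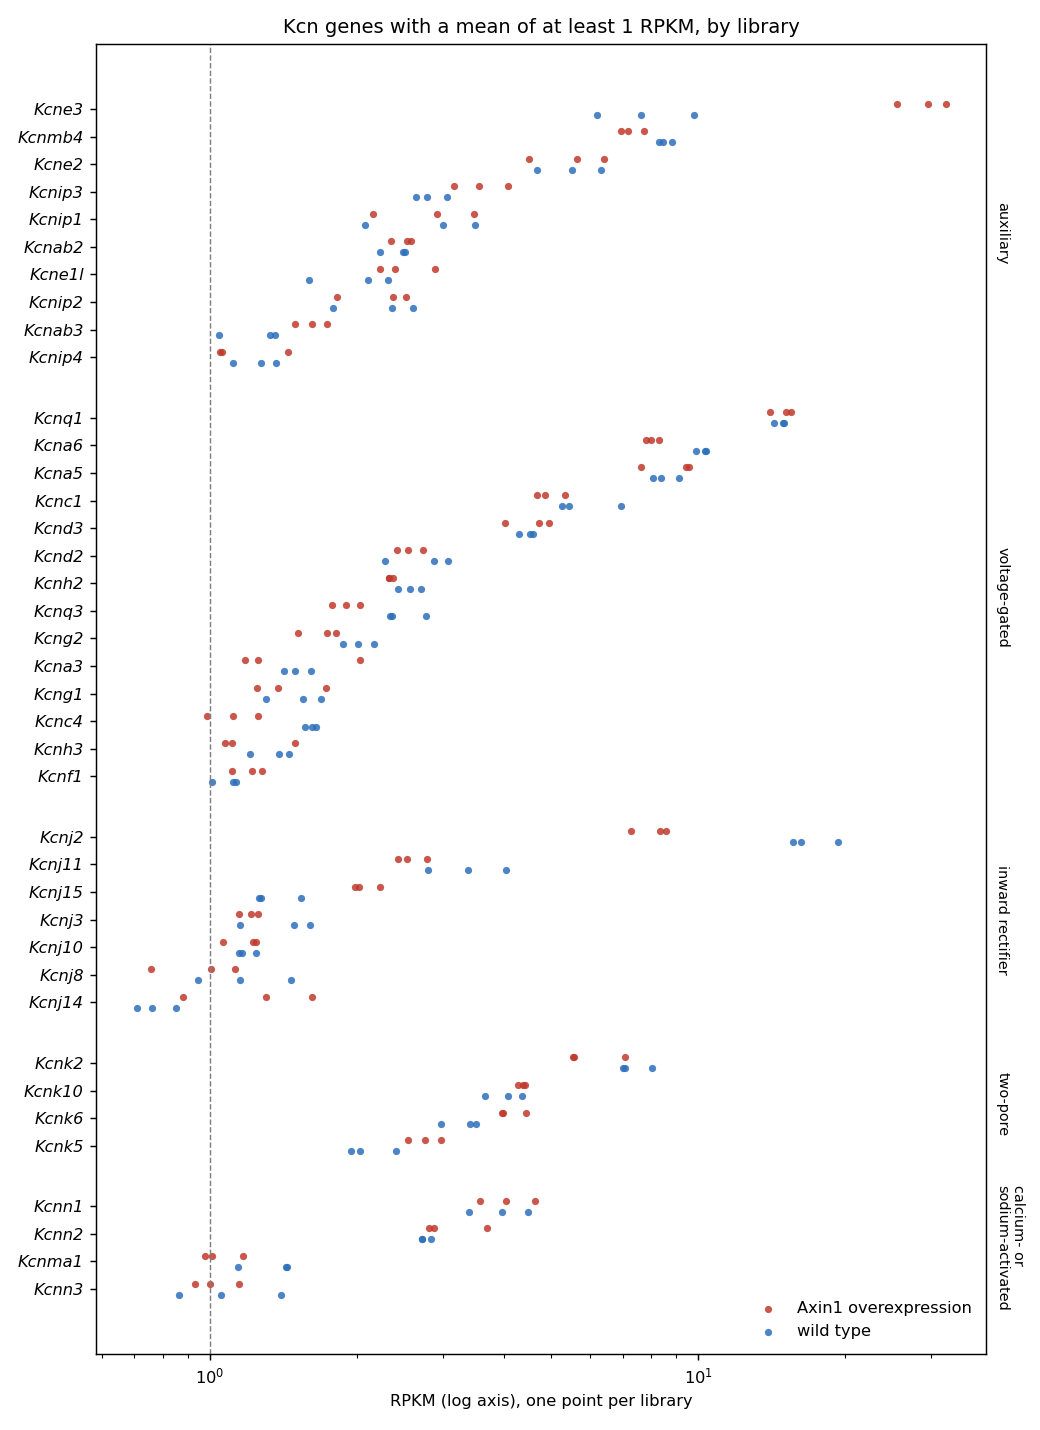
RPKM on a log axis of 39 of the 43 Kcn genes that reached the threshold, with 1 point per library, the Axin1 libraries (red) above the wild-type libraries (blue) in each row, and the threshold of 1 RPKM dashed. Kcne3 lies between 25.5 and 32.1 RPKM in the Axin1 libraries, to the right of every other member, and Kcnj2 lies between 7.29 and 8.61 RPKM there, to the left of its wild-type points.

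Kcne3 was the Kcn gene that differed most between the groups: it rose to 3.69 times its wild-type mean with Axin1 overexpression, while Kcnj2 fell to 0.473 times its wild-type mean. In all, 9 of the 43 genes tested passed limma's test on log2(RPKM + 1) at a Benjamini-Hochberg adjusted p under 0.05 over all 12493 genes, here referred to as called. That is 20.9% of the members, beside 22.8% of all genes tested, so that the share of Kcn genes called was close to the background. Of the 9, 4 were higher (9.3% of the members, beside 14.4% of all genes) and 5 were lower (11.6%, beside 8.37%). Over all genes 1800 were higher and 1046 lower, a split that turned to 1248 higher and 1392 lower when libraries were scaled by the median of ratios, under which 2 Kcn genes were higher and 6 lower. Corrected for GC and length, 913 genes were higher and 897 lower, with 4 Kcn genes higher and 3 lower. A size of at least 1 on the log2 scale was reached by 1 called member, Kcne3, beside 0.664% of all genes. The median log2 fold change of the 43 genes was -0.03, beside 0.04 for all genes tested. The groups did not overlap for 16 of the 43 (37.2%, beside 43.9% of all genes), 7 with the Axin1 libraries on the higher side (16.3%, beside 28.0%) and 9 with them on the lower side (20.9%, beside 15.9%). The median coefficient of variation among 3 replicates was 10.5% for Kcn genes with Axin1 overexpression and 11.5% in wild type, beside 5.6% and 6.86% over all genes tested in the same groups. These sets differ in level, since 10 of the 43 Kcn genes but 9379 of the 12493 genes averaged 5 RPKM or more. Spread at equal level was not compared.

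**Figure D2:**
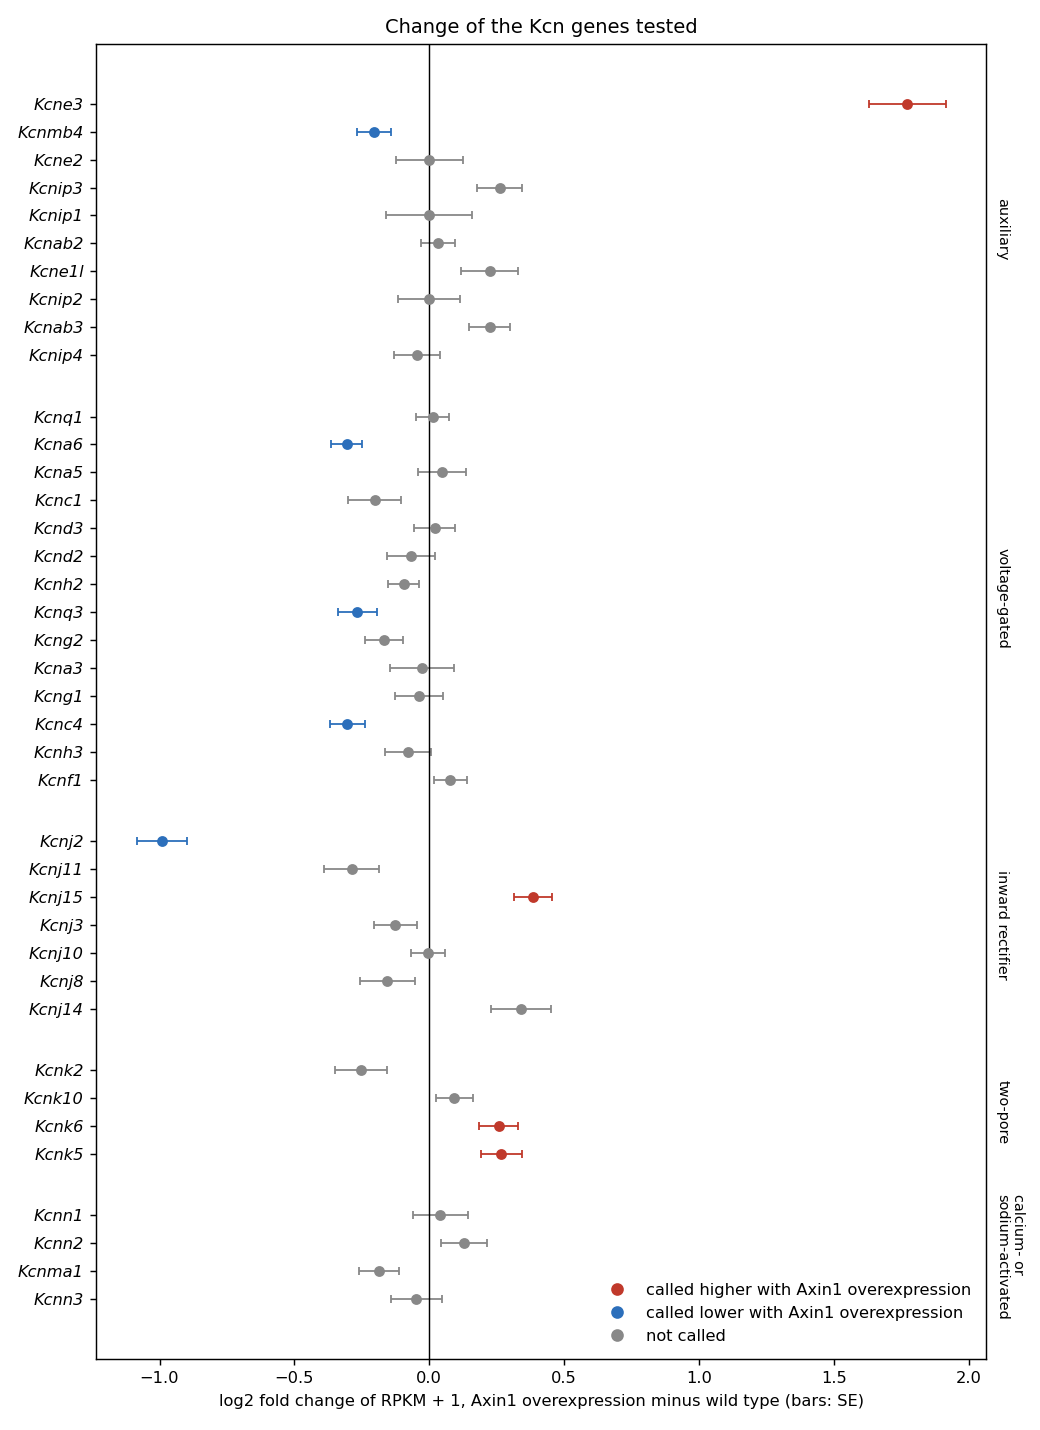
Log2 fold change of RPKM + 1, Axin1 overexpression minus wild type, with its SE, for 39 of the 43 Kcn genes tested, by class and in order of mean level. Kcne3 at 1.77 and Kcnj2 at -0.99 stand apart from the other members shown, which lie between -0.31 and 0.38.

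Among the auxiliary subunit genes, Kcne3 had 29.5, 32.1 and 25.5 RPKM in Axin1 libraries 1 to 3, against 7.63, 6.20 and 9.82 RPKM in wild-type libraries 1 to 3. The lowest Axin1 library lay well above the highest wild-type library, although the values also varied within each group. Group means were 29.1 ± 3.32 RPKM with Axin1 overexpression and 7.88 ± 1.83 RPKM in wild type (SD, n = 3 each), which is 1.77 on the log2 scale with an SE of 0.14 (limma adjusted p = 0.000223). Its rank among the 95 Kcn genes was 1 with Axin1 overexpression and 7 in wild type. Among all genes tested it stood at percentile 74.9 with Axin1 overexpression and 37.0 in wild type. About 1127, 1250 and 566 reads stood behind the Axin1 values and about 497, 347 and 592 behind the wild-type values. These read numbers are approximate, since the row combines 5 RefSeq transcripts. The call held under each of the 15 alternative settings in which it was tested, with log2 fold changes between 1.13 and 1.92, the lowest with a pseudocount of 10 and the highest with voom on recovered reads or without wild-type replicate 3.

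RefSeq gives Kcne3 a pair of start sites on chromosome 7 and Kcnj2 a single one on chromosome 11. The 250 bases before each of these starts are shown because these genes carry the largest changes among the members. The sequences are RefSeq's on build GRCm38.p6, another build than the mm9 of the submitters' processing notes, and are written 5′ to 3′ on the gene's strand in lower case.
Kcne3 start site 1 (chr7:100176420-100176669, plus strand): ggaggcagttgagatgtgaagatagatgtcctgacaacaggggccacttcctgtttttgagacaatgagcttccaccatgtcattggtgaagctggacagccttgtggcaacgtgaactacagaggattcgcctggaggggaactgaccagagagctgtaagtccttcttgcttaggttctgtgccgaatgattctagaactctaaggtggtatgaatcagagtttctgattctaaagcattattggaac
Kcne3 start site 2 (chr7:100178433-100178682, plus strand): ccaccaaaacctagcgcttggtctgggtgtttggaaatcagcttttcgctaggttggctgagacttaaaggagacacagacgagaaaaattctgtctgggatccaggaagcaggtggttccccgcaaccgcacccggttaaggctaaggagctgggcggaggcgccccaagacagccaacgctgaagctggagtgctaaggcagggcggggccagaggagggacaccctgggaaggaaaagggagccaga
Kcnj2 start site 1 (chr11:111065914-111066163, plus strand): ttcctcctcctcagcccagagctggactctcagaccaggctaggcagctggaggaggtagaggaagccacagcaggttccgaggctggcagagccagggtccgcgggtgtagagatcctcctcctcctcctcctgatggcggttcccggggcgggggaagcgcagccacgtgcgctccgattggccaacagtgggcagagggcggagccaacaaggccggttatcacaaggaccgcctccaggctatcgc
The window of the first Kcne3 start had a GC content of 46.8% and 3 CpG dinucleotides, that of the second 58.0% and 10, and that of Kcnj2 65.6% and 14. The core letters bound by TCF and LEF factors, the DNA-binding partners of beta-catenin, were searched as CTTTGAT and CTTTGAA on both strands. These 3 windows held neither motif, so no letters are in capitals. Of the 69 Kcn genes with a window, 4 held at least 1 (5.8%, beside 8.6% of 27025 genes: Kcne4, Kcnk2, Kcns1 and Kcnj16). By window the shares were 4.3% of 94 Kcn windows and 7.5% of all 32851 windows. None of the 7 called members with a window did. No match says only that these letters are not in this window.

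The other Kcne genes did not pass the test or lay under the threshold. Kcne2, which encodes a partner of Kcnq1 and other channels and is known from the choroid plexus epithelium, had 6.40, 4.51 and 5.65 RPKM in Axin1 libraries 1 to 3 and 6.33, 4.68 and 5.51 RPKM in wild-type libraries 1 to 3. Its groups overlapped almost completely (log2 fold change 0.00, SE 0.12, limma adjusted p = 0.997), and the same order of the replicate numbers was seen in both. Kcne1l, listed under its older symbol and now named Kcne5, had 2.51 ± 0.347 RPKM with Axin1 overexpression and 2.01 ± 0.371 RPKM in wild type (SD, n = 3 each; limma adjusted p = 0.154). Kcne4 averaged 0.226 RPKM with Axin1 overexpression and 0.383 RPKM in wild type, under the threshold, and Kcne1, the cardiac partner of Kcnq1, had at most 1 read in any library. Kcne3 made up 76.6%, 80.8% and 75.8% of the summed Kcne RPKM in Axin1 libraries 1 to 3, against 45.9%, 48.4% and 54.9% in wild-type libraries 1 to 3. The difference of these shares gave p = 0.1 in an exact two-sided permutation test, the smallest that 3 against 3 libraries allow. The shares restate the Kcne3 change already given, so this test adds no support.

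Kcnq1, which encodes the pore that Kcne3 binds, was the second most abundant member in both groups and did not pass the test. It had 14.04, 15.1 and 15.5 RPKM in Axin1 libraries 1 to 3, against 14.9, 15.0 and 14.3 RPKM in wild-type libraries 1 to 3 (log2 fold change 0.01, SE 0.06, limma adjusted p = 0.90). The RPKM ratio of Kcne3 to Kcnq1 was 2.10, 2.12 and 1.65 in Axin1 libraries 1 to 3, against 0.511, 0.413 and 0.688 in wild-type libraries 1 to 3. Kcne3 thus had more reads per kilobase of transcript than Kcnq1 in every Axin1 library and fewer in every wild-type library (exact two-sided permutation p = 0.1, the smallest possible). With Kcnq1 near level, the ratio restates the Kcne3 change, so its test adds no support. The kit named in the labels does not mark strand, and Kcnq1 shares 121 exonic bases in GENCODE with the antisense RNA Kcnq1ot1, so reads there cannot be told apart. Kcnq1ot1 was at 0.021 RPKM on average.

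**Figure D3:**
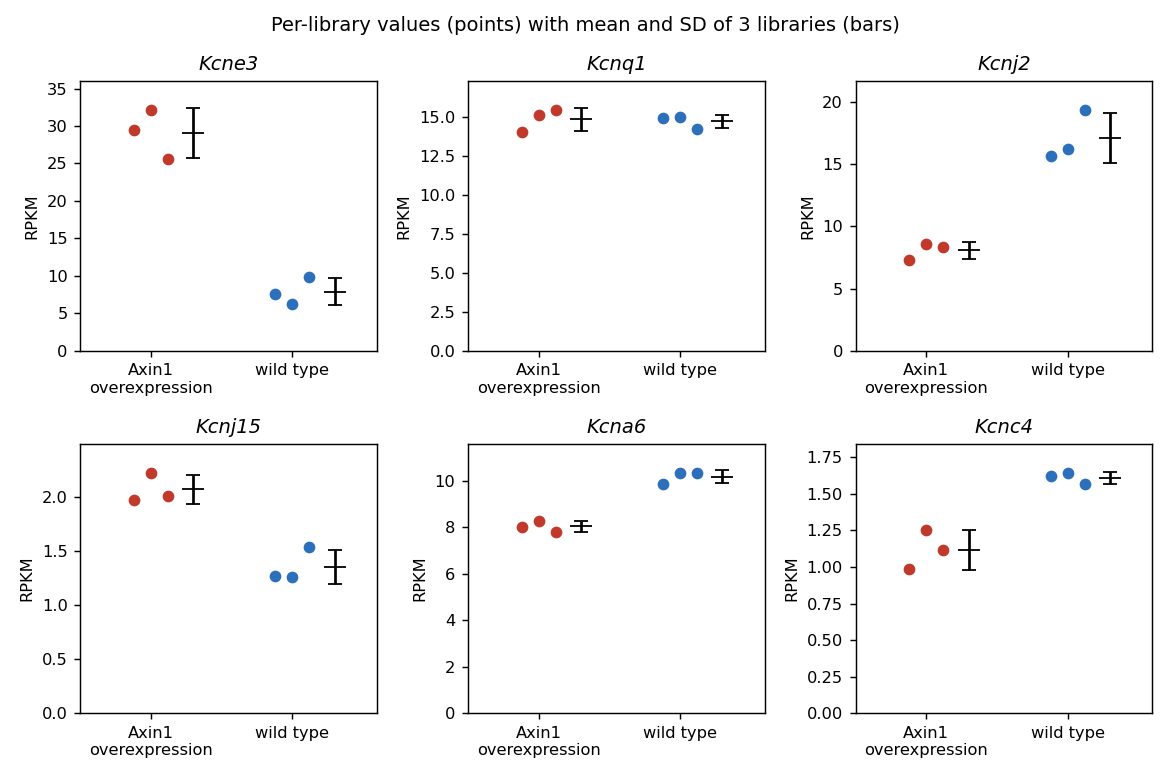
RPKM per library (points) with the mean and SD of 3 libraries (black bars) for 6 Kcn genes, Axin1 overexpression left of wild type, each axis starting at 0. Kcne3 and Kcnj15 are higher and Kcnj2, Kcna6 and Kcnc4 lower in every Axin1 library than in any wild-type library, while the Kcnq1 points of both groups lie between 14.04 and 15.5 RPKM.

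The remaining auxiliary genes showed small differences. Kcnmb4, the beta subunit of calcium-activated large-conductance channels that is typical of brain, had 6.95, 7.74 and 7.18 RPKM in Axin1 libraries 1 to 3, against 8.83, 8.33 and 8.48 RPKM in wild-type libraries 1 to 3. It was called lower by a small amount (log2 fold change -0.20, SE 0.06, limma adjusted p = 0.0476), and this call was lost under 10 of 15 alternatives, among them leaving out any library and the replicate block. Its exons overlap those of a pair of antisense genes in GENCODE, Kcnmb4os1 and Kcnmb4os2, by 355 and 693 bases, and reads from these cannot be told apart. Kcnip3, which binds A-type channels and also acts as a calcium-dependent transcriptional repressor, had 3.55, 4.08 and 3.16 RPKM in Axin1 libraries 1 to 3 and 3.06, 2.64 and 2.78 RPKM in wild-type libraries 1 to 3. These groups did not overlap, but the test was not passed (log2 fold change 0.26, limma adjusted p = 0.0562). Kcnab3, a cytoplasmic beta subunit, had a log2 fold change of 0.22 (limma adjusted p = 0.0624) with no overlap, at 1.62 RPKM with Axin1 overexpression and 1.24 RPKM in wild type. The log2 fold changes of Kcnip1, Kcnip2, Kcnip4 and Kcnab2 lay between -0.05 and 0.03, with limma adjusted p between 0.718 and 0.995. Their means were 2.85 RPKM for Kcnip1, 2.24 RPKM for Kcnip2, 1.18 RPKM for Kcnip4 and 2.49 RPKM for Kcnab2 with Axin1 overexpression, against 2.86 RPKM for Kcnip1, 2.25 RPKM for Kcnip2, 1.25 RPKM for Kcnip4 and 2.41 RPKM for Kcnab2 in wild type.

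Of 18 voltage-gated pore genes tested by limma, 3 were lower (beside 8.37% of all genes), 0 were higher (beside 14.4%) and 15 did not pass. At an unadjusted limma p under 0.05, 6 were lower (beside 14.1% of all genes) and 0 higher (beside 24.8%). The number higher was 0 with voom and in the authors' deposited table as well. Kcna6, a delayed rectifier of the Shaker family, had 8.02, 8.30 and 7.82 RPKM in Axin1 libraries 1 to 3, against 9.88, 10.3 and 10.4 RPKM in wild-type libraries 1 to 3. The replicates lay close together in both groups and did not overlap (log2 fold change -0.31, SE 0.06, limma adjusted p = 0.00939), and the call held under each of the 15 alternatives. Corrected for GC and length, its log2 fold change was -0.18, and the call only just held (limma adjusted p = 0.0493). In GENCODE the exons of Kcna6 share 2355 bases with an antisense gene, Gm26673, so reads from both cannot be told apart.

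Kcnc4, of the fast-activating Shaw family, had 0.984, 1.26 and 1.116 RPKM in Axin1 libraries 1 to 3, against 1.62, 1.65 and 1.57 RPKM in wild-type libraries 1 to 3. It was lower in each Axin1 library than in any wild-type library (log2 fold change -0.30, SE 0.07, limma adjusted p = 0.0154), on 71 to 140 reads per Axin1 library and 264 to 303 per wild-type library. With a pseudocount of 0.1 its log2 fold change was -0.50, and the call was lost with a pseudocount of 10 (-0.06) and once values were corrected for GC and length (-0.19). Kcnc1, of the same family, averaged 4.96 RPKM with Axin1 overexpression and 5.88 RPKM in wild type, with a log2 fold change of -0.20 that did not pass (limma adjusted p = 0.162).

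Of the Kcnq genes, Kcnq3, which encodes a subunit of the neuronal M-current channel, had 1.90, 2.03 and 1.78 RPKM in Axin1 libraries 1 to 3, against 2.36, 2.77 and 2.34 RPKM in wild-type libraries 1 to 3. Its groups did not overlap (log2 fold change -0.27, SE 0.07, limma adjusted p = 0.0299). Leaving out any Axin1 library or wild-type replicate 2 ended the call, as did a pseudocount of 10 and voom.

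The other voltage-gated genes did not pass. Kcna5, a delayed rectifier like Kcna6, had 8.89 ± 1.09 RPKM with Axin1 overexpression and 8.54 ± 0.527 RPKM in wild type (SD, n = 3 each; log2 fold change 0.05). The A-type channel genes Kcnd3 and Kcnd2 averaged 4.56 and 2.56 RPKM with Axin1 overexpression, against 4.47 and 2.75 RPKM in wild type. Kcnh2, the ether-a-go-go-related gene whose human counterpart carries the cardiac repolarising current, averaged 2.34 RPKM with Axin1 overexpression and 2.57 RPKM in wild type, with no overlap but a log2 fold change of only -0.10 (limma adjusted p = 0.262). Kcng2, which encodes a subunit that is silent alone and modifies Kcnb channels, had a log2 fold change of -0.17 with no overlap, at 1.69 RPKM with Axin1 overexpression and 2.02 RPKM in wild type (limma adjusted p = 0.11). Kcna3, Kcnf1, Kcng1 and Kcnh3 had log2 fold changes between -0.08 and 0.08. Their means were 1.49 RPKM for Kcna3, 1.2 RPKM for Kcnf1, 1.45 RPKM for Kcng1 and 1.23 RPKM for Kcnh3 with Axin1 overexpression, against 1.51 RPKM for Kcna3, 1.09 RPKM for Kcnf1, 1.51 RPKM for Kcng1 and 1.35 RPKM for Kcnh3 in wild type.

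Among the inward rectifiers, Kcnj2 had 7.29, 8.61 and 8.36 RPKM in Axin1 libraries 1 to 3, against 15.6, 16.2 and 19.4 RPKM in wild-type libraries 1 to 3. Every Axin1 library was far below every wild-type library. The means were 8.08 ± 0.701 RPKM with Axin1 overexpression and 17.1 ± 2.01 RPKM in wild type (SD, n = 3 each), which is -0.99 on the log2 scale with an SE of 0.09 (limma adjusted p = 0.000413). Reads behind these values numbered 961 to 1737 per Axin1 library and 4711 to 6062 per wild-type library. Among the 95 members Kcnj2 ranked 5 with Axin1 overexpression and 1 in wild type. The call held under each of the 15 alternatives, with log2 fold changes between -1.07 and -0.58.

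Kcnj15 moved the other way within the same family, and from a lower level. It had 1.98, 2.23 and 2.02 RPKM in Axin1 libraries 1 to 3, against 1.27, 1.26 and 1.54 RPKM in wild-type libraries 1 to 3, with no overlap (log2 fold change 0.38, SE 0.07, limma adjusted p = 0.00827). With voom the value was 0.63, and with a pseudocount of 10 it was 0.09 and no longer called (limma adjusted p = 0.0555). In GENCODE its exons share 333 bases with an antisense gene. Summed over the 15 Kcnj genes, the level was 19.0, 21.2 and 20.1 RPKM in Axin1 libraries 1 to 3, against 29.2, 27.9 and 31.1 RPKM in wild-type libraries 1 to 3. Without Kcnj2 the sum was 12.02 ± 0.498 RPKM with Axin1 overexpression and 12.3 ± 1.10 RPKM in wild type (SD, n = 3 each; exact two-sided permutation p = 1.0). Kcnj2 was left out of that sum after its change was seen, so the test supports nothing. Kcnj2 made up 38.3% to 41.6% of the family's summed RPKM in the Axin1 libraries and 53.5% to 62.4% in the wild-type libraries.

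The pore genes of channels closed by ATP had values on the lower side without passing. Kcnj11 had 2.54, 2.43 and 2.79 RPKM in Axin1 libraries 1 to 3, against 4.04, 3.38 and 2.79 RPKM in wild-type libraries 1 to 3 (log2 fold change -0.29, limma adjusted p = 0.0716). The highest Axin1 library and the lowest wild-type library all but coincided, and the gene passed without wild-type replicate 3 (-0.39, limma adjusted p = 0.0254). Kcnj8, whose channel is known from pericytes, had 0.961 ± 0.186 RPKM with Axin1 overexpression and 1.19 ± 0.262 RPKM in wild type (SD, n = 3 each; limma adjusted p = 0.296). Its regulatory partner Abcc9 averaged 1.15 RPKM with Axin1 overexpression and 1.046 RPKM in wild type (limma adjusted p = 0.374). Of 8 pericyte and smooth muscle markers tested, 5 were called lower (beside 8.37% of all genes) and 0 higher (beside 14.4%). The 12 listed summed to 54.1 to 70.6 RPKM in Axin1 libraries and 71.8 to 84.9 RPKM in wild-type libraries, and none was at 0. Without Vtn, the most abundant, the sums overlapped, at 30.2 to 43.0 RPKM in Axin1 libraries and 42.5 to 50.6 RPKM in wild-type libraries. Their part in the Kcnj8 values was not tested. Kcnj14, of the same strong inward rectifier branch as Kcnj2, had 1.30, 1.62 and 0.88 RPKM in Axin1 libraries 1 to 3 and 0.709, 0.761 and 0.851 RPKM in wild-type libraries 1 to 3 (log2 fold change 0.34, limma adjusted p = 0.0582). Kcnj14 reached the threshold through the Axin1 libraries alone and Kcnj8 through the wild-type libraries alone, so their tests support nothing. Without the threshold the limma adjusted p of Kcnj14 was 0.13. Kcnj3, of the G-protein-gated branch, and Kcnj10, the main glial rectifier, had log2 fold changes of -0.13 and 0.00. Kcnj3 averaged 1.2 RPKM with Axin1 overexpression and 1.41 RPKM in wild type, and Kcnj10 1.18 RPKM with Axin1 overexpression and 1.18 RPKM in wild type.

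**Figure D4:**
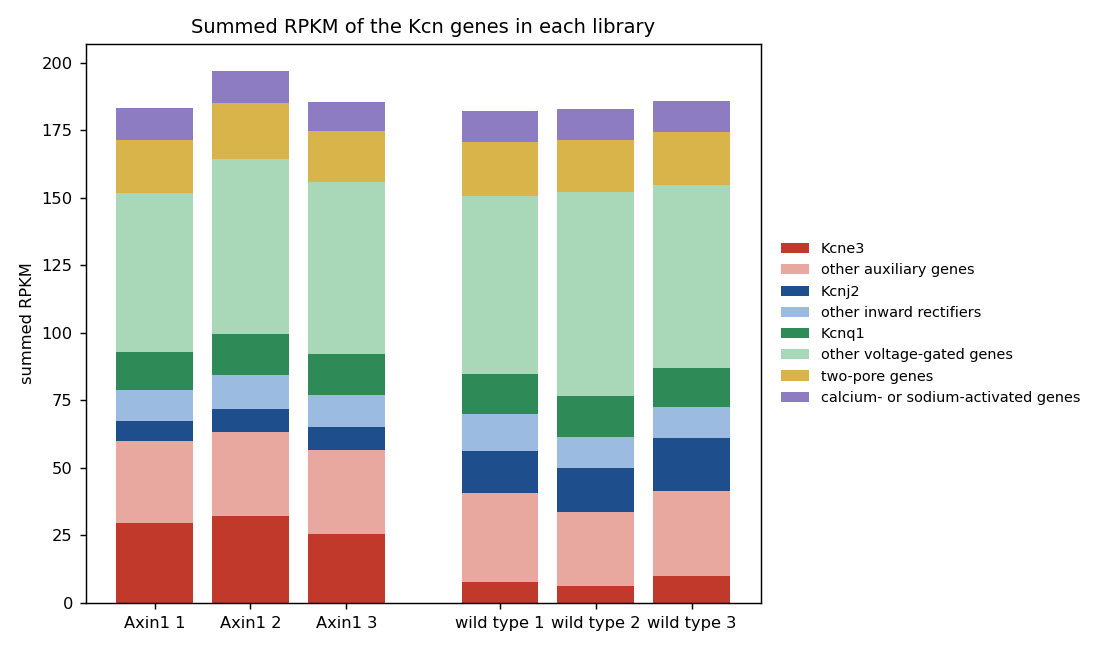
Summed RPKM of all 95 Kcn genes in each library, stacked by class from 0 with Kcne3, Kcnj2 and Kcnq1 set apart, the Axin1 libraries left of the wild-type libraries. The totals lie between 182 and 197 RPKM in all 6 libraries, while the Kcne3 segment is taller and the Kcnj2 segment shorter in each Axin1 library.

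Among the tandem-pore Kcnk genes, whose channels carry background potassium current, 2 of 4 tested were higher (beside 14.4% of all genes), 0 were lower (beside 8.37%) and 2 did not pass. Kcnk6 had 4.43, 3.96 and 3.99 RPKM in Axin1 libraries 1 to 3, against 2.97, 3.50 and 3.41 RPKM in wild-type libraries 1 to 3 (log2 fold change 0.26, SE 0.07, limma adjusted p = 0.0358). Kcnk5, an alkaline-activated channel, had 2.76, 2.97 and 2.55 RPKM in Axin1 libraries 1 to 3, against 1.95, 2.03 and 2.41 RPKM in wild-type libraries 1 to 3 (log2 fold change 0.27, SE 0.08, limma adjusted p = 0.0386). Neither gene overlapped between groups, but each call was lost under 9 of 14 alternatives, including the median of ratios, the replicate block, no filter and the omission of any Axin1 library or of wild-type replicate 1. Kcnk2, a stretch- and lipid-gated channel known from brain endothelium in the control of leukocyte passage, was the most abundant of the class, with 5.53, 7.08 and 5.57 RPKM in Axin1 libraries 1 to 3, against 8.05, 7.002 and 7.07 RPKM in wild-type libraries 1 to 3. Its groups overlapped through Axin1 replicate 2 (log2 fold change -0.25, limma adjusted p = 0.0908), and without that library it was called (-0.35, limma adjusted p = 0.0426). Its close relative Kcnk10 had a log2 fold change of 0.09, at 4.36 RPKM with Axin1 overexpression and 4.03 RPKM in wild type (limma adjusted p = 0.341).

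Of the calcium-activated genes, none of 4 tested passed by limma (beside 22.8% of all genes called), and 1 of them, Kcnma1, had an unadjusted p under 0.05 (beside 39.0%). Of these 4, 0 passed with voom or in the authors' deposited table. Kcnn3 and Kcnn4 encode the small- and intermediate-conductance channels through which endothelium is known to hyperpolarise arterial smooth muscle. Kcnn3 averaged 1.03 RPKM with Axin1 overexpression and 1.10 RPKM in wild type, and Kcnn4, just under the threshold, 0.877 RPKM with Axin1 overexpression and 0.947 RPKM in wild type. The more abundant family members were Kcnn1, with 4.08 RPKM under Axin1 overexpression and 3.94 RPKM in wild type, and Kcnn2, with 3.13 RPKM under Axin1 overexpression and 2.76 RPKM in wild type. Kcnma1, the large-conductance pore that Kcnmb4 binds, had 1.17, 1.011 and 0.979 RPKM in Axin1 libraries 1 to 3, against 1.14, 1.44 and 1.43 RPKM in wild-type libraries 1 to 3 (log2 fold change -0.18, limma adjusted p = 0.103).

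Below the threshold, 52 Kcn genes lay between 0 and 0.967 RPKM, 19 of them under 0.1 RPKM. The 3 highest were Kcnk9, Kcnj13 and Kcnh4. Kcnj13, known from choroid plexus epithelium, averaged 0.829 RPKM with Axin1 overexpression and 1.022 RPKM in wild type. Of 7 choroid plexus markers tested 1 was called lower (beside 8.37% of all genes) and 0 higher (beside 14.4%). The 10 listed summed to 117 to 184 RPKM in Axin1 libraries and 206 to 276 RPKM in wild-type libraries, and none was at 0. Without Ttr, the most abundant, the sums did not overlap, at 49.6 to 62.6 RPKM in Axin1 libraries and 84.5 to 110 RPKM in wild-type libraries. These remainders averaged 56.0 RPKM with Axin1 overexpression and 101.5 RPKM in wild type. Most of each was Enpp2, the 1 marker called, at 36.7 RPKM with Axin1 overexpression and 83.0 RPKM in wild type. Of the other tested markers, Clic6, Otx2 and Sostdc1 had log2 fold changes above 0, and Ttr, Folr1 and Calml4 below 0. The part of these markers in the Kcne2 and Kcnj13 values was not tested. Kcna10, Kcnk15, Kcnk16 and Kcnmb3 had 0 reads in each library, which allows up to 3 reads, or 0.081 to 0.142 RPKM for 1 kb of transcript in Axin1 libraries and 0.048 to 0.056 RPKM in wild-type libraries, counting error only. When the threshold was dropped, 8 of 91 Kcn genes were called by limma, beside 13.3% of all genes. The 1 call gained among the low genes was Kcnab1, at 0.336 RPKM with Axin1 overexpression and 0.483 RPKM in wild type (log2 fold change -0.15, limma adjusted p = 0.0306). It rested on 37, 37 and 21 reads in Axin1 libraries 1 to 3 and 86, 73 and 90 in wild-type libraries 1 to 3. In the authors' deposited table Kcnab1 did not pass (DESeq adjusted p = 0.273).

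The sum over all 95 genes was 183, 197 and 185 RPKM in Axin1 libraries 1 to 3 and 182, 183 and 186 RPKM in wild-type libraries 1 to 3 (exact two-sided permutation p = 0.4). Kcne3 made up 16.1%, 16.3% and 13.8% of that sum in Axin1 libraries 1 to 3, against 4.19%, 3.39% and 5.28% in wild-type libraries 1 to 3. Kcnj2 made up 3.98%, 4.37% and 4.51% in Axin1 libraries 1 to 3, against 8.58%, 8.87% and 10.4% in wild-type libraries 1 to 3. Without Kcne3 and Kcnj2 the sum was 152 ± 4.94 RPKM with Axin1 overexpression and 159 ± 1.90 RPKM in wild type (SD, n = 3 each; exact two-sided permutation p = 0.1, the smallest possible). Both genes were left out after their changes were seen, so this test supports nothing. Several members lie side by side in the RefSeq annotation of GRCm38.p6. Kcnj2 adjoins Kcnj16, which averaged 0.0274 RPKM with Axin1 overexpression and 0.0401 RPKM in wild type. Kcnj15 adjoins Kcnj6, at 0.246 RPKM with Axin1 overexpression and 0.415 RPKM in wild type. On chromosome 6, Kcna6 lies beside Kcna1, which averaged 0.606 RPKM with Axin1 overexpression and 0.504 RPKM in wild type, and Kcna5, whose values are given above, is the third gene of that run.

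The authors' deposited table gave an adjusted p under 0.05 to 6 of the 91 Kcn genes with reads (6.59%, beside 8.88% of 18917 genes). Relative to wild type, 2 of the 6 were higher (beside 3.91% of all genes) and 4 lower (beside 4.97%). In that table the adjusted p was 1.02e-18 for Kcne3, 1.16e-11 for Kcnj2, 0.000174 for Kcnj15, 0.00622 for Kcna6 and 0.0217 for Kcnc4, each also called by limma in the same direction. The authors' deposited table gave their folds as wild type over Axin1 overexpression, at 0.278 for Kcne3, 2.18 for Kcnj2, 0.653 for Kcnj15, 1.31 for Kcna6 and 1.49 for Kcnc4. The sixth, Kcnt1, a sodium-activated channel gene, had an adjusted p of 0.017 in the authors' deposited table. It averaged 0.568 RPKM with Axin1 overexpression and 0.832 RPKM in wild type, and limma without the threshold gave it a log2 fold change of -0.23 (adjusted p = 0.146). The other 4 limma calls, Kcnq3, Kcnk6, Kcnk5 and Kcnmb4, had adjusted p between 0.0722 and 0.364 in the authors' deposited table.

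**Figure D5:**
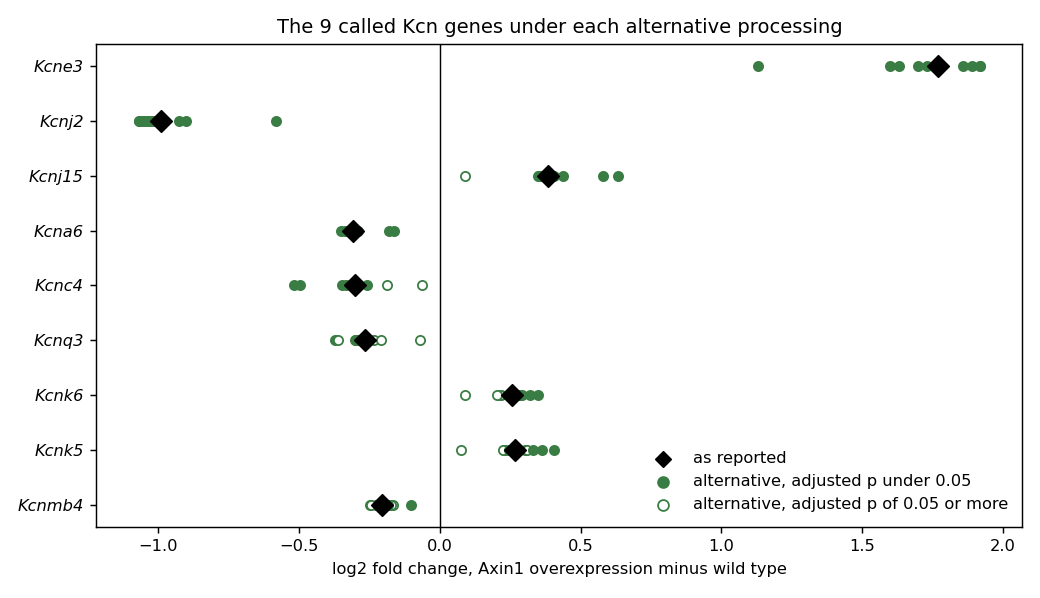
Log2 fold change of the 9 called Kcn genes as reported (black diamonds) and under each alternative processing (circles, filled where the limma adjusted p stays under 0.05). Kcne3, Kcnj2 and Kcna6 stay filled throughout, Kcnj15 has 1 open circle and Kcnc4 2, while Kcnq3, Kcnk6, Kcnk5 and Kcnmb4 have between 6 and 10.

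Genes that work with these channels were mixed. Of 34 listed genes of potassium pumps, cotransporters, channel partners and their regulators, 29 were tested, with a median log2 fold change of -0.11. Of these 29, 3 were higher (beside 14.4% of all genes) and 5 lower (beside 8.37%). In either direction 22.8% of all genes were called. Lrrc55, which encodes a gamma subunit of the large-conductance channel, had 2.59, 2.80 and 3.25 RPKM in Axin1 libraries 1 to 3, against 6.47, 5.65 and 4.56 RPKM in wild-type libraries 1 to 3 (log2 fold change -0.75, SE 0.11, limma adjusted p = 0.00385). Hcn2, a hyperpolarisation-activated cation channel, averaged 0.757 RPKM with Axin1 overexpression and 1.75 RPKM in wild type (log2 fold change -0.64, limma adjusted p = 0.00447). It passed the threshold of 1 RPKM through its wild-type values alone, so its call is a description and supports nothing. Slc12a7, a potassium-chloride cotransporter, had 12.2 ± 0.189 RPKM with Axin1 overexpression and 15.6 ± 0.357 RPKM in wild type (SD, n = 3 each; log2 fold change -0.33, limma adjusted p = 0.00591). Wnk4, a kinase that regulates such cotransporters, was lower as well (-0.37, limma adjusted p = 0.0243). Higher were Sgk1, a kinase that acts on ion channels and transporters (0.46), Fxyd5, a sodium pump modulator (0.33), and Stk39, a kinase downstream of Wnk kinases (0.31), with limma adjusted p between 0.0101 and 0.0269. Of 16 tested calcium-permeable, calcium-store or mechanosensitive channel genes and their regulators, 2 were higher (beside 14.4% of all genes) and 1 lower (beside 8.37%). Among them were Fam38b, the older symbol of Piezo2, a stretch-gated channel (higher by 0.75 on the log2 scale, limma adjusted p = 0.00135), and Orai1, the store-operated calcium channel (-0.35, limma adjusted p = 0.00613).

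Markers of other cells are given beside these values because many Kcn genes are also expressed by neurons and glia. Over all genes tested, 14.4% were called higher and 8.37% lower, which stand beside each marker count below. Of 12 neuron markers 2 were called higher and 0 lower, with a summed level of 552 to 575 RPKM in Axin1 libraries and 460 to 585 RPKM in wild-type libraries. Without Tubb3 the neuron sums did not overlap, at 274 to 292 RPKM in Axin1 libraries and 224 to 260.5 RPKM in wild-type libraries. Of 12 neural progenitor markers 8 were higher and 0 lower, summing to 2247 to 2350 RPKM in Axin1 libraries and 1746 to 1911 RPKM in wild-type libraries. Vim made up most of these sums, at a mean of 1469 RPKM with Axin1 overexpression and 1167 RPKM in wild type. Without Vim the progenitor sums still did not overlap, at 786 to 866 RPKM in Axin1 libraries and 596 to 726 RPKM in wild-type libraries. The largest part of that rest was Nes, not called, at 431 RPKM with Axin1 overexpression and 373 RPKM in wild type. Fabp7 came next, at 216 RPKM with Axin1 overexpression and 146 RPKM in wild type. Of 12 meningeal fibroblast markers 4 were lower and 0 higher, summing to 332 to 353 RPKM in Axin1 libraries and 414 to 794 RPKM in wild-type libraries, and without Ptgds to 270.3 to 277 RPKM in Axin1 libraries and 250.1 to 379 RPKM in wild-type libraries, which overlap. Of 6 erythroid markers tested 4 were higher and 2 lower, summing to 342 to 654 RPKM in Axin1 libraries and 124 to 164 RPKM in wild-type libraries. The higher ones were Hbb-bh1, Hbb-y, Hba-x and Alas2. The lower ones were Tfrc, at 15.3 RPKM with Axin1 overexpression and 30.3 RPKM in wild type, and Epor, at 2.17 and 3.82 RPKM. Without Hbb-y the erythroid sums did not overlap either, at 63.2 to 104 RPKM in Axin1 libraries and 42.1 to 58.9 RPKM in wild-type libraries. Tfrc made up most of the wild-type remainder, which averaged 48.0 RPKM. Of 8 microglial markers tested 1 was higher and 0 lower, summing to 27.8 to 48.6 RPKM in Axin1 libraries and 27.0 to 29.9 RPKM in wild-type libraries. These overlap, also without C1qc, at 21.4 to 38.3 RPKM in Axin1 libraries and 20.2 to 23.0 RPKM in wild-type libraries. Of the 10 endothelial markers 1 was higher and 3 lower. No marker of these lists was at 0 in all libraries, and their part in the Kcn values was not tested.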

How the data were processed

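The deposited table gives RPKM for 23827 genes in 3 Axin1 overexpression and 3 wild-type libraries, and, per the file headers, the authors' DESeq mean normalised counts (a signal per group), their fold, written here as wild type over Axin1 overexpression, and their p-values. Bowtie, DESeq and mm9 are named per the submitters' processing notes, with versions and the count method not given in the sources used here. Dividing the RPKM by the value of 1 read gave whole reads within 0.05 for 100.0% of values of genes with a single RefSeq transcript, 24.0% of those with several and 83.6% of all.

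The 12493 genes averaging 1 RPKM or more were tested on log2(RPKM + 1) with limma 3.58.1 in R 4.3.3, with Benjamini-Hochberg adjustment over all of them, without a replicate block. This scale understates the change of low genes. RPKM is scaled by library total. Single values such as sums were compared by exact two-sided permutation (scipy 1.17.1). The test was run on simulated data first. The alternatives were other pseudocounts and filters, a replicate block, median of ratios, voom on recovered reads, trended robust variances, a loess correction for GC content and length, and leaving out each library. The labels call the replicates biological. The kit does not mark strand.

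Called Kcn genes are named with every library's value, other Kcn genes over the threshold with group values, and of the lower ones the 3 highest. Kcne1, Kcne4, Kcnab1, Kcnn4, Kcnt1, Kcnq1ot1, the genes at 0 and the neighbours of called genes were singled out after their values were seen. The sums without Kcnj2, and without Kcne3 and Kcnj2, were also chosen after the values were seen. The members and lists were chosen with earlier results of these data known. The authors' log2 fold column was not used, since 365 of its cells held no number.
Some genes of these lists are counted in the totals but are not reported by name here. The marker sums without the most abundant gene were added after seeing the data.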

Additional observations from a re-analysis of the deposited data

How the results depend on the processing

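Of the 9 Kcn calls (4 higher, 5 lower), Kcne3, Kcnj2 and Kcna6 held under each of 15 alternatives, and no Kcn gene tested reversed a called direction. The total fell to 4 with a pseudocount of 10 (1 higher, 3 lower), to 4 with a minimum of 5 RPKM (1 higher, 3 lower), where only 10 members were tested, and to 1 with a log2 fold change of at least 1 in size (1 higher, 0 lower). Higher calls numbered 2 without a filter, 2 with the replicate block and 2 with the median of ratios. Lower calls numbered 3 with voom and 3 after the GC content and length correction. Leaving out 1 library gave 5 to 8 calls (2 to 4 higher, 3 to 5 lower), with 5 without Axin1 replicate 1. Partner gene calls, 8 as reported, came to 0 at a log2 fold change of at least 1 in size and to 4 to 9 with 1 library left out, with 5 without Axin1 replicate 2 and 4 without Axin1 replicate 3. The number of Kcn genes reaching 1 RPKM stayed between 42 and 43 with 1 library left out. Apart from the named constructions, the cause was not tested. Over all genes the calls numbered 1810 after the GC content and length correction and 1054 to 2318 with 1 library left out, beside 2846.

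Same-numbered libraries of the groups had correlations of their deviations of 0.0785, 0.127 and 0.0593, and each correlated best with its own number, a hint from the data and not the design. They were therefore not treated as pairs. The replicate block gave 7 Kcn calls (2 higher, 5 lower), ending those of Kcnk5, Kcnk6 and Kcnmb4. The depth of the Axin1 libraries, on average 1.84 times lower than in wild type, limits the precision of the genes near 1 RPKM, and tag and genotype cannot be told apart.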
